A study of Mus musculus with 10 samples.

Results

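Transforming growth factor beta (TGF-beta) transcripts were examined in 10 subcutaneous CT26 tumors as 9 genes: the ligand genes Tgfb1, Tgfb2 and Tgfb3, the receptor genes Tgfbr1, Tgfbr2 and Tgfbr3, and the target genes Smad7, Skil and Tgfbi. The genes were chosen by symbol, and all 9 were found among the 36009 genes in the table of estimated counts. The CT26 line derives from a colorectal carcinoma of the mouse, and the tumors grew in female BALB/c mice labeled wild type. Each library was made by polyA RNA sequencing from the piece of an untreated tumor that was removed before a hydrogel carrying poly(I:C), a synthetic double-stranded RNA, was placed on the residual tumor. The 6 responders were tumors of mice that later showed complete regression, and the 4 non-responders were tumors whose growth was not delayed. The labels gave neither the age of the mice nor a sequencing batch, and the whole resected piece was sequenced, so tumor, stromal and immune cells contributed together.

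TGF-beta ligands are secreted in a latent form bound to a propeptide and to matrix proteins, and must be released before they can bind a receptor. The active ligand binds the type II receptor, which recruits and phosphorylates the type I receptor, and the type I receptor phosphorylates SMAD2 and SMAD3, which enter the nucleus with SMAD4. In tumors the pathway is known for restraining T cells, activating fibroblasts and inducing matrix genes, and for its own negative feedback through SMAD7 and SKIL.

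Library totals ranged from 23374649 to 38042544 estimated counts. Lineage markers were read first, because many cell types express these genes. Of 6 macrophage markers, 4 passed the test as higher in responders (Adgre1, Cd68, C1qa and Itgam), and the summed level of all 6 was 1935 to 2855 CPM (counts scaled to a common library size) in responders and 1546 to 1904 CPM in non-responders. Csf1r was higher by 0.24 and did not pass (log2; edgeR adjusted p = 0.130), and the estimate for Mrc1 was lower, at -0.13 (edgeR adjusted p = 0.494). Of 8 fibroblast markers, 2 were lower in responders (Pdgfrb and Fap), with summed levels of 4170 to 4862 CPM and 3627 to 5924 CPM in responders and non-responders. Fibroblast estimates were higher for 3 of the 8 and lower for 5, with Thy1 higher by 0.45 (log2; edgeR adjusted p = 0.0942). Of 4 skeletal muscle markers, 2 were higher in responders, with sums of 352 to 1103 CPM and 309 to 426 CPM, whereas 0 of 6 endothelial, 0 of 4 T cell and 0 of 3 adipocyte markers tested passed. Estimates of all of these were nevertheless higher in responders, by 0.02 to 0.43 (log2) for endothelial, 0.60 to 1.27 for T cell and 1.93 to 2.33 for adipocyte markers, and those of T cells and adipocytes all had an unadjusted p under 0.05. Of 4 pericyte and smooth muscle markers, 2 estimates were higher and 2 lower, and 1 passed (Des, higher by 1.04, log2; edgeR adjusted p = 0.0440). Of the regulatory T cell, platelet and keratinocyte markers tested (3, 3 and 1), 0 passed. The mean log2 CPM of the 4 keratinocyte markers was 0.12 in non-responder 2 and -2.58 to -2.26 in the other tumors. Epithelial markers were close to 0: Krt8 and Epcam reached at most 0.565 and 0.709 CPM in any tumor, and Cdh1 ranged from 2.63 to 7.03 CPM. Estimates of the 3 tested were lower in responders, at -0.95 for Cdx2, -0.74 for Krt19 and -0.53 for Cdh1 (log2). None passed, and Cdx2 and Cdh1 had an unadjusted p under 0.05. In these bulk libraries, fewer cells of a type and less RNA per cell cannot be told apart.

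None of the 9 genes passed the test between responders and non-responders, and the groups overlapped for all 9. Differences were tested with edgeR's quasi-likelihood test, with Benjamini-Hochberg adjustment over 16041 genes and a threshold of 0.05 on the adjusted p. All 9 genes passed the low-count filter. The count of 0 of 9 stood beside 8.06% of all genes tested, 4.71% higher and 3.35% lower in responders. At an unadjusted p under 0.05 there were 3 of the 9 (Tgfbr1, Tgfbr2 and Tgfbi), beside 29.1% of all genes. The estimates were higher in responders for 5 genes and lower for 4, with a median log2 fold change of 0.05, beside -0.0086 over all genes. DESeq2, run as an alternative, placed 2 of the 9 past the threshold (Tgfbr1, adjusted p = 0.0398, and Tgfbr2, adjusted p = 0.013), and it called 2573 of the 16041 genes against 1293 with edgeR. The plot of CPM by tumor shows each gene in both groups.

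**Figure D1:**
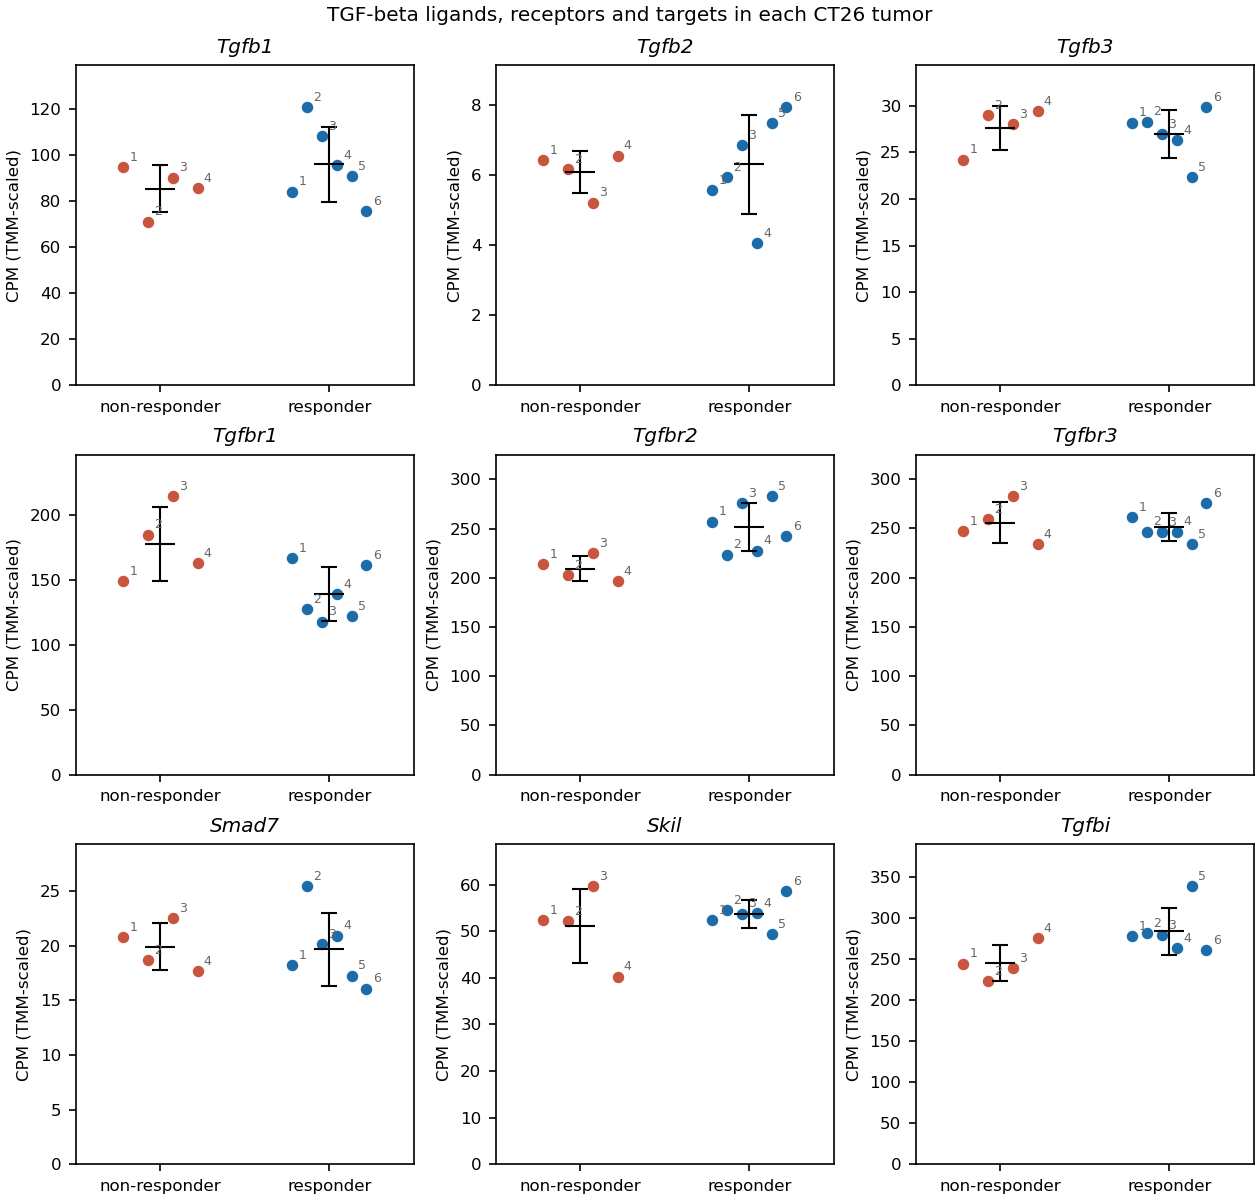
CPM (scaled by the trimmed mean of M-values) of each of the 9 genes in every tumor, with non-responders in red, responders in blue, the tumor's number beside its point, and the mean and SD of each group as a bar with whiskers. Both groups overlapped for every gene, and for Tgfbr2 5 of the 6 responders exceeded the highest non-responder.

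Levels were compared between genes as CPM per kb of exon, with all annotated exons of a gene merged. This adjusts for annotated length, not for the transcripts present in these tumors, so the order of genes is approximate. Tgfbi, which encodes a secreted matrix protein induced by TGF-beta, had the highest level, 71.2 ± 8.39 CPM per kb (SD, n = 10). The co-receptor gene Tgfbr3 followed at 38.7 ± 2.47 CPM per kb. Tgfbr2, Tgfbr1 and Tgfb1 came next at 28.7 ± 3.59, 23.6 ± 4.61 and 18.2 ± 2.91 CPM per kb, and neighbors among these 3 overlapped across tumors. Tgfb3 was at 8.06 ± 0.707 CPM per kb, below every value of Tgfb1. The feedback genes Skil and Smad7 were at 5.44 ± 0.551 and 4.38 ± 0.618 CPM per kb and overlapped each other. Tgfb2 was lowest at 1.07 ± 0.193 CPM per kb and overlapped with no other gene. The plot of levels per length shows the same order in both groups, apart from the overlapping neighbors.

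**Figure D2:**
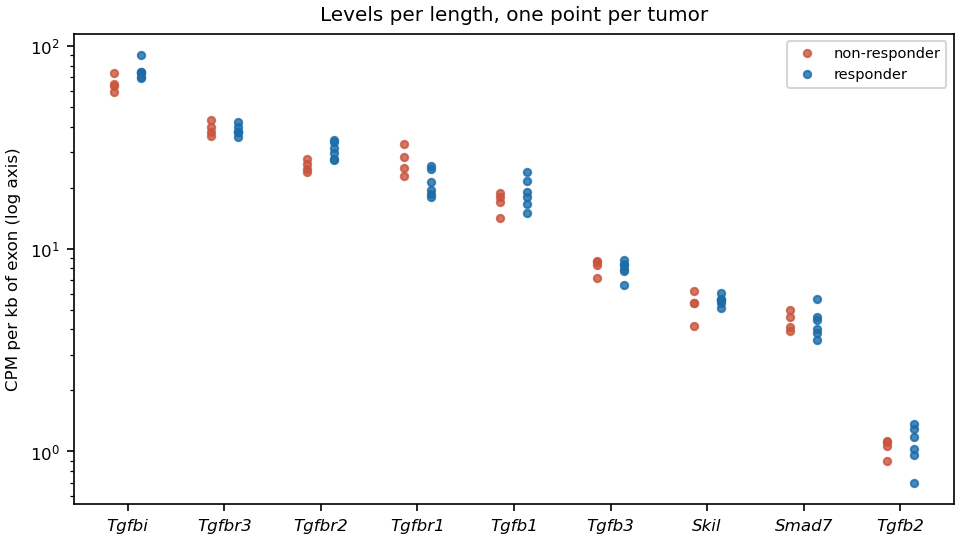
CPM per kb of exon on a log axis for the 9 genes in order of their mean, with 1 point per tumor, non-responders in red and responders in blue. Tgfbi had the highest points and Tgfb2, with a mean of 1.07 CPM per kb, the lowest.

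The ligand genes differed little between groups. Tgfb1 (chromosome 7, 25687002 to 25705077, GRCm38), which encodes the ligand most widely made by immune and stromal cells, had 75.8, 93.5 and 121 CPM as the lowest, median and highest value in responders. In non-responders it had 94.8, 71.2, 90.3 and 85.6 CPM in tumors 1 to 4. Responder 2 was the highest tumor and non-responder 2 the lowest, and 3 of the 6 responders exceeded the highest non-responder. The log2 fold change of responders over non-responders was 0.17 ± 0.12 (SE; 95% interval -0.11 to 0.44; edgeR adjusted p = 0.396). It was 0.09 without responder 2 or without non-responder 2. With the mean level of the macrophage markers as a covariate it was 0.41 (edgeR adjusted p = 0.882), in a fit where response and those markers cannot be told apart.

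Tgfb2 (chromosome 1, 186622792 to 186705989), whose ligand depends on the co-receptor for efficient binding to the type II receptor, had 4.06, 6.39 and 7.93 CPM as the lowest, median and highest value in responders. It had 6.42, 6.16, 5.20 and 6.55 CPM in the 4 non-responders, all inside the range of the responders. The log2 fold change was 0.05 ± 0.17 (SE; edgeR adjusted p = 0.871), on counts of only 120 to 304 in a library. Tgfb3 (chromosome 12, 86056745 to 86079041), the third ligand gene, had 22.3, 27.6 and 29.9 CPM in responders and 24.2, 29.0, 28.1 and 29.4 CPM in non-responders. Its log2 fold change was -0.04 ± 0.08 (SE; edgeR adjusted p = 0.815), and the lowest and highest tumors were both responders. Ttll5, a gene on the opposite strand at a mean of 13.8 CPM, overlaps 5149 bp of the Tgfb3 locus, introns included, and the strand setting of the counting was not given in the sources used here.

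The share of Tgfb1 in the summed per-kb level of the 3 ligand genes was 67.4% ± 4.62 (SD, n = 6) in responders and 64.6% ± 4.23 (SD, n = 4) in non-responders. The difference of 2.84 percentage points was within the spread of both groups (two-sided exact permutation test, p = 0.333). It was 4.47 points without non-responder 1, 4.41 without responder 6 and 1.13 without non-responder 2. In CPM without division by exon length the difference was 2.415 points (two-sided exact permutation test, p = 0.362). Tgfb1 thus supplied most of the ligand transcript in every tumor, from 59.5% in non-responder 2 to 71.9% in responder 2.

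The receptor genes showed the largest differences, in opposite directions for the type I and type II receptors, and neither passed the adjusted threshold. Their promoters are shown because the transcripts of the pair stood apart in direction. Each is the 250 bases before the RefSeq start site on GRCm38.p6, in the direction of the gene, at chr4:47352972-47353221 (plus strand) for Tgfbr1 and chr9:116175364-116175613 (minus strand) for Tgfbr2. Capitals mark GGGCGG, the core of the box bound by SP1-type factors, and CAGAC, a SMAD-binding element, on either strand.
Tgfbr1: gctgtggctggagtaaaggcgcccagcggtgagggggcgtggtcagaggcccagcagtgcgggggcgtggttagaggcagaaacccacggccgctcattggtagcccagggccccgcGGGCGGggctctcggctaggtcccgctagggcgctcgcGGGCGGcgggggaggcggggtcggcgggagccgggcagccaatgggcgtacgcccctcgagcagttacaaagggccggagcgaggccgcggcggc
Tgfbr2: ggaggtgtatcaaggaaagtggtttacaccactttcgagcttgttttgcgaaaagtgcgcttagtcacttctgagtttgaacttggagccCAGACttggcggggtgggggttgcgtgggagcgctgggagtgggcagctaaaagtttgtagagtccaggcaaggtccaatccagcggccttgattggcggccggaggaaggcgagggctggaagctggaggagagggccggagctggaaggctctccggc
The Tgfbr1 stretch was 74.8% G and C with 2 GGGCGG and 0 CAGAC, and the Tgfbr2 stretch was 58.4% G and C with 0 GGGCGG and 1 CAGAC. Of 32851 mouse promoters of this length, 32.7% held GGGCGG and 42.2% held CAGAC, and the median G and C content was 52.4%. RefSeq promoter entries matched 5 of the 9 genes. These matches describe the letters in the window.

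Tgfbr2 (chromosome 9, 116084293 to 116175360), the type II receptor that binds the ligand, had 223, 249.8 and 283 CPM as the lowest, median and highest value in responders. It had 214, 202, 225 and 196 CPM in non-responders 1 to 4. All responders except responder 2 lay above all non-responders, and responder 2 was below non-responder 3 alone. The log2 fold change was 0.26 ± 0.07 (SE; 95% interval 0.10 to 0.43; edgeR adjusted p = 0.0517). Leaving out each tumor gave edgeR adjusted p values of 0.0344 (without responder 4) to 0.127 (without non-responder 4). Only the fit without responder 4 passed. With the macrophage marker score as a covariate the log2 fold change was 0.05. That score itself did not overlap between the groups (8.08 to 8.66 in responders, 7.71 to 8.04 in non-responders, mean log2 CPM), so response and macrophage markers cannot be told apart in that fit.

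Tgfbr1 (chromosome 4, 47353222 to 47414931), the type I receptor kinase, had 118, 133 and 167 CPM as the lowest, median and highest value in responders and 149, 185, 214 and 163 CPM in non-responders. Here 4 of 6 responders lay below all non-responders, whereas responders 1 and 6 lay among them. The log2 fold change was -0.35 ± 0.12 (SE; 95% interval -0.62 to -0.09; edgeR adjusted p = 0.0863). With the macrophage score as a covariate it was -0.38, and with the skeletal muscle score -0.18.

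Tgfbr3 (chromosome 5, 107106570 to 107289629), which encodes the co-receptor betaglycan, had 234, 246.6 and 275 CPM in responders and 247, 259, 282 and 234 CPM in non-responders. Of the 9 genes it varied least between tumors, with a coefficient of variation of 6.396% over all 10, and its log2 fold change was -0.02 ± 0.06 (SE; 95% interval -0.16 to 0.11; edgeR adjusted p = 0.831).

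The log2 ratio of Tgfbr3 to Tgfbr2 in each tumor was 0.0033 ± 0.185 (SD, n = 6) in responders and 0.287 ± 0.067 (SD, n = 4) in non-responders. All 6 responders lay below all 4 non-responders, a difference of -0.28 (two-sided exact permutation test, p = 0.00952, the smallest that 6 against 4 allows; 0.019 after adjustment over the 2 ratios tested). This separation was not particular to Tgfbr3: of the 16040 other genes tested, 22.8% gave a ratio to Tgfbr2 whose highest responder was below the lowest non-responder. For single genes, groups did not overlap for 5.84% of genes in the higher and 4.55% in the lower direction.

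The ratio of Tgfbr2 to Tgfbr1 was examined after the values of both genes were seen and is given without a test. Its log2 value was 0.591, 0.762 and 1.23 as the lowest, median and highest in responders and 0.521, 0.132, 0.0749 and 0.273 in non-responders 1 to 4. The groups did not overlap, and the nearest tumors were responder 6 and non-responder 1. Inverted, as Tgfbr1 to Tgfbr2, this ratio is among the 22.8% of ratios to Tgfbr2 that were lower in every responder. No such share was computed for ratios to Tgfbr1. Both ratios are drawn in the plot of receptor ratios.

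**Figure D3:**
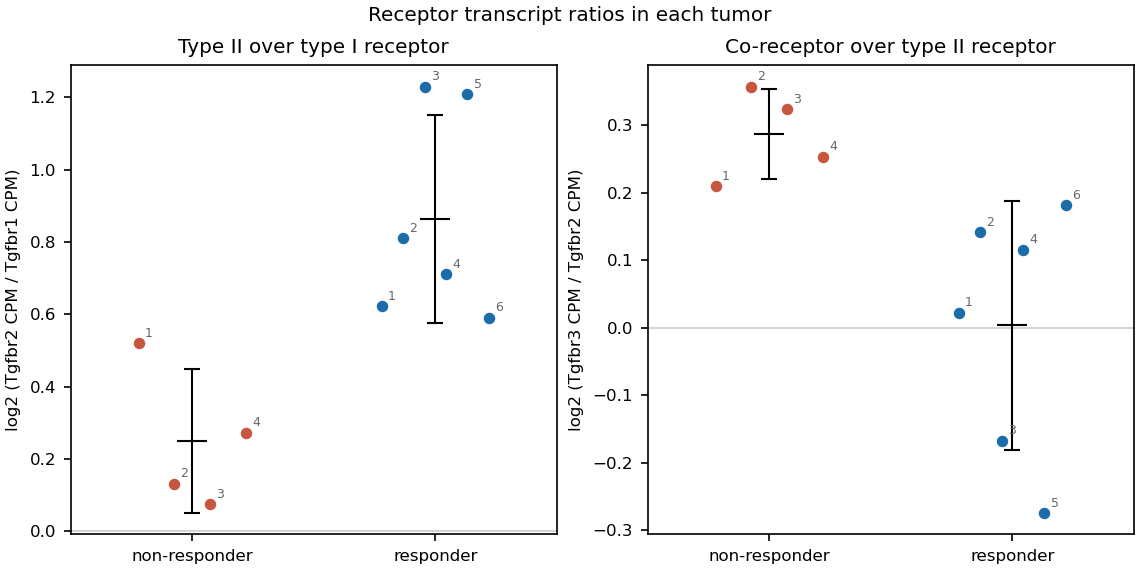
Log2 ratio of Tgfbr2 to Tgfbr1 CPM (left) and of Tgfbr3 to Tgfbr2 CPM (right) in each tumor, with non-responders in red, responders in blue, tumor numbers beside the points, and bars for the mean and SD. The groups were separate in both panels. Of all other genes, 22.8% were lower in every responder when divided by Tgfbr2, with Tgfbr1 and Tgfbr3 among them.

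The target genes did not pass the test. Tgfbi (chromosome 13, 56609523 to 56639562) had 261, 279 and 339 CPM as the lowest, median and highest value in responders and 245, 223, 239 and 276 CPM in non-responders. Responder 5 was the highest tumor by a wide margin, and 4 of the 6 responders exceeded the highest non-responder. The log2 fold change was 0.21 ± 0.08 (SE; 95% interval 0.03 to 0.38; edgeR adjusted p = 0.114). With the macrophage score as a covariate it was 0.04.

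Smad7 (chromosome 18, 75367529 to 75395935), the inhibitory SMAD that blocks the type I receptor, had 16.1, 19.2 and 25.5 CPM in responders and 20.8, 18.7, 22.5 and 17.7 CPM in non-responders. The lowest and highest tumors were both responders, and the log2 fold change was -0.02 ± 0.12 (SE; 95% interval -0.28 to 0.25; edgeR adjusted p = 0.948). Skil (chromosome 3, 31095058 to 31122577), which encodes the SMAD co-repressor SnoN, had 49.4, 53.8 and 58.7 CPM in responders and 52.4, 52.2, 59.7 and 40.3 CPM in non-responders. All responders lay within the range of the non-responders, and the log2 fold change was 0.08 ± 0.09 (SE; 95% interval -0.12 to 0.27; edgeR adjusted p = 0.622).

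The 9 genes were also compared with each other across the 10 tumors as log2 CPM. Of 36 pairs, 0 passed a permutation test after adjustment over the pairs, by Pearson's r or Spearman's rho, and 6 had an unadjusted p under 0.05 by Pearson's r. Tgfb1 and Smad7 had r = 0.747 (permutation p = 0.0137, adjusted 0.183) and rho = 0.636 (permutation p = 0.0554, adjusted 0.285), and r = 0.657 without the 2 tumors farthest from the median of Tgfb1. Among responders alone the same pair had r = 0.912 (n = 6; exact permutation p = 0.0139, adjusted 0.336). Tgfbr1 and Tgfbi had r = -0.711 (permutation p = 0.0200, adjusted 0.183) and rho = -0.745 (permutation p = 0.0170, adjusted 0.198), with r = -0.737 without the 2 tumors farthest from the median of Tgfbr1, and r = -0.526 within responders. With group means subtracted first, Tgfbr1 and Tgfbi had r = -0.492 (permutation p = 0.19, adjusted 0.565). Tgfb1 and Smad7 then had r = 0.832 (permutation p = 0.00787, adjusted 0.0944), and 0 of the 36 pairs passed. Over all 10 tumors the smallest Pearson p was that of Tgfbr3 and Skil, r = 0.756 (permutation p = 0.00694, adjusted 0.183). With 4 tumors, non-responders alone were not correlated.

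Among all genes tested, those most like a member across the 10 tumors were named for 1 member of each role and for Tgfb3, as a description without a test. Likeness is Pearson's r of log2 CPM, and the points share libraries and depth. For Tgfb1 these were Itpripl2 (r = 0.954), Edf1 (0.954) and Hepacam2 (0.941), and for Tgfb3 they were Usp3 (r = 0.931), Arhgap29 (0.916) and Zscan20 (0.896). For Tgfbr3 they were Ankhd1 (r = 0.952), Dnajc13 (0.946) and Gm6505 (0.944), and for Tgfbi they were Smap2 (r = 0.953), Atp6v0c (0.951) and Cisd2 (0.949). Hepacam2 and Gm6505 averaged only 0.61 and 1.58 CPM. Each named gene was picked as 1 of the top 3 among all genes tested, and the r that such selection alone would give over 10 tumors was not computed.

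The rest of the pathway was read from 5 lists that held 81 genes, of which 78 were tested. Of these, 11 passed (14.1%, beside 8.06% of all genes), 5 higher and 6 lower in responders, and the median log2 fold change was -0.03. The count of each list stands beside 4.71% of all genes called higher and 3.35% called lower in responders. Genes of ligand latency and activation had 3 of 14 higher and 0 lower. Emilin1, a matrix protein that restrains processing of the ligand precursor, rose from 44.5 ± 5.25 CPM (SD, n = 4) in non-responders to 55.9 ± 3.48 CPM (SD, n = 6) in responders. Nrros, which anchors latent TGF-beta on myeloid cells, rose by 0.51 ± 0.14 (log2, SE; edgeR adjusted p = 0.0456), and its log2 fold change was 0.03 with the macrophage score as a covariate. Ltbp2, of the latent TGF-beta binding protein family, rose by 0.35 ± 0.09 (log2, SE; edgeR adjusted p = 0.0391). Ltbp1, Ltbp3 and Ltbp4 of the same family did not pass and had log2 fold changes of -0.06, -0.06 and -0.02.

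Of 12 other receptors of the family, 2 were higher in responders and 0 lower. Eng, an endothelial co-receptor also called endoglin, was at 30.3 ± 4.80 CPM in responders and 19.4 ± 2.84 CPM in non-responders (log2 fold change 0.64, edgeR adjusted p = 0.0266). Acvrl1, the type I receptor ALK1 that partners with it, was higher by 0.57 (log2; edgeR adjusted p = 0.0347). The groups did not overlap for either gene, beside 5.84% of all genes in this direction. Of 6 endothelial markers 0 passed, with all 6 estimates higher in responders, and with the macrophage score as a covariate the log2 fold changes were 0.20 for Eng and 0.05 for Acvrl1.

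SMADs and their regulators had 0 of 16 higher and 4 lower in responders, beside 4.71% and 3.35% of all genes. Of the 16 estimates, 4 were higher and 12 lower. The largest, for Smad6 and Smad9, were higher in responders at 0.73 and 0.71 (log2; edgeR adjusted p = 0.0595 and 0.0737) and did not pass. Smad3, a receptor-activated SMAD of the TGF-beta branch, was at 145 ± 7.14 CPM in responders and 169 ± 13.7 CPM in non-responders (log2 fold change -0.22, edgeR adjusted p = 0.0446). Smad2, also receptor-activated in that branch, had a log2 fold change of -0.0005 (edgeR adjusted p = 0.996). Smad5, of the bone morphogenetic protein branch, was lower by 0.20 (a log2 fold change of -0.20, edgeR adjusted p = 0.0266). The co-repressor Tgif2 and the ubiquitin ligase Trim33 had log2 fold changes of -0.28 and -0.22 (edgeR adjusted p = 0.0318 and 0.0404).

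Of 21 other target genes tested, 0 were higher and 1 was lower. Postn, the matrix protein periostin, was at 36.2 ± 4.27 CPM in responders and 61.7 ± 17.1 CPM in non-responders (log2 fold change -0.77, edgeR adjusted p = 0.0286). Acta2, the smooth muscle actin of activated fibroblasts and pericytes, had a log2 fold change of 0.97 (edgeR adjusted p = 0.0514), which did not pass, and of -0.065 with the macrophage score as a covariate. Of 15 other ligands and antagonists tested, 0 were higher and 1 was lower: Inhbb, the activin beta B subunit, at 13.8 ± 2.29 CPM in responders and 23.3 ± 4.59 CPM in non-responders (log2 fold change -0.75, edgeR adjusted p = 0.0245). Gdf11, an activin-type ligand, had a log2 fold change of -0.36 (edgeR adjusted p = 0.0565), which did not pass. The part of the macrophage, fibroblast and muscle markers in these calls was not tested separately from response, and with any 1 of those scores as a covariate 0 of the 78 genes passed. Calls over all genes fell too, from 1293 to 16 with the fibroblast score and to 0 with either of the others. With the fibroblast score the log2 fold change was 0.65 for Eng, 0.55 for Acvrl1 and -0.20 for Smad5. It was -0.60 for Postn, -0.16 for Smad3, -0.67 for Inhbb, -0.25 for Tgif2 and -0.20 for Trim33. For Nrros, Ltbp2 and Emilin1 it was 0.43, 0.42 and 0.30. The count of 11 also changed without single tumors, as did calls over all genes. It was 0 without responder 3, non-responder 1 or non-responder 4 (17, 16 and 0 over all genes) and 1 without responder 2 (244 over all genes). It was 3 without non-responder 3, 4 without responder 5 and 5 without responder 1 (366, 412 and 553 over all genes). The plot of pathway fold changes shows every gene tested.

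**Figure D4:**
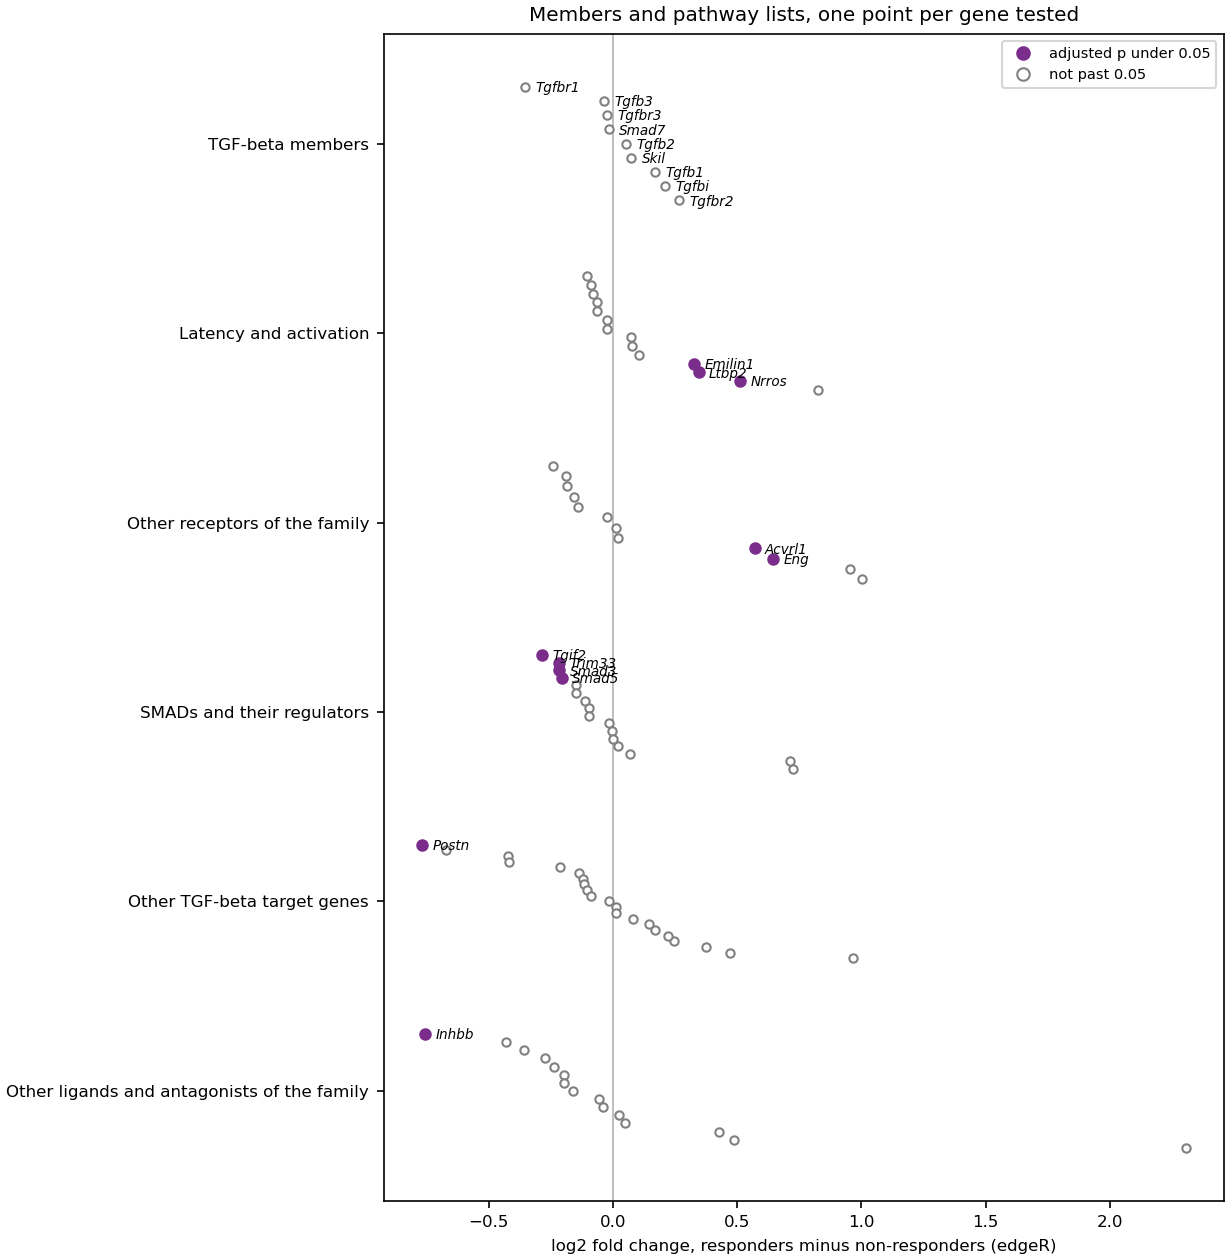
Log2 fold change of responders over non-responders (edgeR) for each gene tested, by list, with filled purple points for an adjusted p under 0.05 and open points for the rest. All 9 TGF-beta members are open, between -0.35 for Tgfbr1 and 0.26 for Tgfbr2, and the 11 filled points are 5 higher and 6 lower.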

How the data were processed

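RNA was sequenced (polyA, paired end) from 10 untreated CT26 tumors, grouped by the response given in the labels. The authors reviewed reads with FastQC, estimated transcript abundance with Kallisto and summed it to genes with tximport on mm10. The deposited values are estimated counts, 45.1% of them fractional, and were rounded to whole numbers here. The annotation release, tximport option and strand setting were not given in the sources used here. Rows without a gene name (9633, at most 1.23% of counts) stayed in the counts that were filtered, scaled and tested. The files held 0 sample columns outside these tumors.

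Counts were filtered with filterByExpr (minimum count 10, minimum total 15), scaled by TMM and tested with edgeR 4.0.16 (quasi-likelihood, R 4.3.3, Benjamini-Hochberg, adjusted p under 0.05), with no covariate. Log2 CPM used a prior count of 2. DESeq2 1.42.0 and limma 3.58.1 (voom), other scalings and filters, marker-score covariates and leaving out each tumor were alternatives. Ratios were tested by exact permutation and pairs by 100000 permutations (scipy 1.17.1). The fits across genes were tested on simulated data. The limit on false calls that DESeq2 had to meet there was raised after it first exceeded it, and its extra calls are read as those of a more liberal test. Exon lengths came from GENCODE M21 and promoters from RefSeq, both on GRCm38.

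Members and gene lists were chosen with earlier results of these data known. Named genes were the 9 members, in each pathway list those past the threshold (at most 6) and in any case the 2 with the smallest p, and the 3 genes most like each of Tgfb1, Tgfb3, Tgfbr3 and Tgfbi. The ratio of Tgfbr2 to Tgfbr1 was added after seeing the data. No label says that the tumors of a group came from separate experiments, so p-values measure the spread between these tumors.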

Additional observations from a re-analysis of the deposited data

Results flagged for a closer look

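Tgfbi in responder 5 stood apart from the other responders, at 339 CPM against 282 CPM for the next tumor. That gap was 0.7349 of the range of the 6 responders, above the critical value of 0.625. It was the only one of 22 groups of values examined (both groups for each gene and ratio) to do so, and chance alone gives about 1.1 in that many.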

How the results depend on the processing

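The count of TGF-beta genes past the threshold, 0 of 9, was 2 with DESeq2 (Tgfbr1 and Tgfbr2), 1 with a filter of CPM above 1 in at least 4 tumors (Tgfbr2), 2 at an adjusted p under 0.1, and 0 to 1 when each tumor was left out. The pathway count of 11 was 19 with DESeq2, 21 at an adjusted p under 0.1, 0 with the fibroblast, macrophage or skeletal muscle score as a covariate, and 0 to 14 when each tumor was left out. The calls over all genes moved too: 2573 with DESeq2, 2999 at an adjusted p under 0.1, and 16, 0 and 0 with the 3 scores. At an unadjusted p under 0.05, edgeR had 24, 8 and 9 of the pathway genes and 3464, 923 and 1092 of all genes with these scores. Over all genes the number called ran from 0 (without non-responder 4) to 1897 (without non-responder 2) when a tumor was left out, against 1293 with all. The cause was not tested.

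Estimates of 5 of the 9 genes, all within 0.08 of 0, changed sign, and so did that of Acta2, which was 0.97 without a covariate. With the macrophage score the log2 fold change was -0.38 for Tgfb2, 0.046 for Tgfb3, 0.27 for Smad7 and -0.065 for Acta2. With the skeletal muscle score it was -0.31 for Tgfb2, 0.045 for Tgfb3, 0.022 for Tgfbr3 and 0.0085 for Smad7, and with the fibroblast score it was 0.029 for Smad7. Leaving out each tumor gave -0.026 to 0.16 for Tgfb2, -0.089 to 0.0145 for Tgfb3, -0.064 to 0.027 for Tgfbr3, -0.10 to 0.047 for Smad7 and -0.025 to 0.16 for Skil. Of 180 alternative values of the 9 genes, 155 kept direction and side of the threshold, 6 passed it and 19 changed sign. Of 260 for the other pathway genes named, 150 kept both, 103 lost the call, 6 gained it and 1 changed sign. The Tgfbr3 to Tgfbr2 difference stayed between -0.32 and -0.23 without each tumor. The exact permutation p was 0.0159 to 0.0238, the smallest those numbers of tumors allow. It could not be otherwise, because groups that do not overlap stay separate when a tumor is left out, so these p-values add no support. No paired analysis was possible because the tumors are numbered in accession order and no label pairs them. Tgfb2 rested on the fewest counts, 120 to 304 in a library.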
